A study of Danio rerio with 16 samples.

Results

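The 4 mature miRNAs described here are the 2 arms of the zebrafish hairpins mir140 and mir210, which are dre-miR-140-5p and dre-miR-140-3p on the former and dre-miR-210-5p and dre-miR-210-3p on the latter. They were picked by name among the non-control spots of the scanner files, and make up 4 of the 248 miRNAs on the array. Their level was measured in liver of female zebrafish with a custom 1-colour miRNA array, and 16 arrays were used, 4 in each group. Fed fish served as the control, Fasted fish went without food for 7 days, Fed/FLX fish were fed and kept in water with fluoxetine, and Fasted/FLX fish had both treatments. Fluoxetine (FLX) is a selective serotonin reuptake inhibitor, and was given at 540 ng/L for the same 7 days. Each sample was a pool of 2 livers. Per the study's methods each group lived in a tank of its own, so what separates the groups cannot be told apart from the tanks, and n counts pools of fish. The FLX arrays also took other slide columns (2 and 4) than the arrays without FLX (1 and 3), and these cannot be told apart either.

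A miRNA hairpin is cut by Dicer into a duplex of a 5p and a 3p strand. Usually 1 strand is kept by an Argonaute protein and guides it to messenger RNAs, while the other is degraded, and which strand is kept can differ between hairpins and tissues. In mammals and zebrafish miR-140 is best known from cartilage, and in mammals both of its arms are abundant there. miR-210 is known in mammals as a target of hypoxia-inducible factor, and its 3p arm is the usual guide. In the RefSeq annotation of the GRCz12tu assembly mir140 overlaps wwp2, a ubiquitin ligase gene, and lies between frs2b and adat1. In the same annotation mir210 overlaps a long non-coding RNA gene, LOC137489363, and lies between rassf7a and phrf1.

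Each miRNA had 60 spots per array, and each member had 2 probe sequences of 30 spots. Detection on an array was set at 50% or more of the spots of a miRNA being well above background by the scanner software, with outlier spots left out. Of the 248 miRNAs 64 to 77 were detected per array with Fed, 74 to 78 with Fasted, 65 to 87 with Fed/FLX and 83 to 92 with Fasted/FLX, and none of the miRNA spots was saturated. The hepatocyte miRNA dre-miR-122 was detected on all 16 arrays. Of miRNAs that mark other cell types, 1 of 7 for muscle, 0 of 3 for brain, 2 of 2 for red blood cells, 3 of 3 for endothelium and 2 of 3 for pancreas were detected on at least 1 array. The arrays differed in brightness: over the 49 miRNAs detected on every array, the median spot signal was 102 to 136 on the Fed arrays, 138 to 163 on the Fasted arrays, 97.0 to 152 with Fed/FLX and 158 to 242 with Fasted/FLX. All Fasted/FLX and Fasted arrays were thus brighter than every Fed array, while Fed/FLX and Fed overlapped. In the deposited table of log2 values only 2 of 16 columns matched the scan of the sample in their heading, and 12 matched a scan of another group. The results below rest on the scanner files, taken by their own labels.

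The 2 hairpins differed in how their arms were detected. dre-miR-210-3p was detected on all 16 arrays and dre-miR-210-5p on 1 of 16, an array of Fasted/FLX. dre-miR-140-3p was detected on 9 of 16 arrays and dre-miR-140-5p on 2 of 16, again in Fasted/FLX, the group in which the most miRNAs were detected overall. On the Fed arrays dre-miR-210-3p was the only member past the 50% limit. Levels of different probes are not comparable on an array, so these counts are a description of detection and not a ratio of the arms.

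The share of its spots above background showed dre-miR-140-3p to rest on 1 of its 2 probes. Probe 2 of dre-miR-140-3p had 40, 73.3, 89.7 and 79.3% of spots well above background on the Fed arrays. On the Fasted arrays the share was 93.3, 100, 100 and 100%, on the Fed/FLX arrays 100, 100, 100 and 96.7%, and on the Fasted/FLX arrays 100% throughout. Every array of the 3 treatments lay above every Fed array. The share of all probe sequences without such overlap was not worked out, and all Fasted and Fasted/FLX arrays were brighter than every Fed array. Probe 1 of the same arm had 0% of spots above background on 15 arrays and 3.33% on Fasted array 3. With both probes counted the share stayed between 20.0 and 52.6%, so that the detection call of dre-miR-140-3p turned on a few spots near the 50% limit. On Fed/FLX array 4 and Fasted/FLX array 2, for example, 49.2% of spots were above background and the arm did not count as detected. Another limit, the 99th percentile of the negative control spots of the same array, gave other shares. This limit was a signal of 36.8 on Fasted array 3 and 23.5 on Fed array 3, and 5.96 to 15.5 on the other arrays. Past it, probe 2 had 100, 100, 10.3 and 100% of spots on the Fed arrays and 90.0, 100, 63.3 and 100% on the Fasted arrays. On all FLX arrays it had 100%. Probe 1 had up to 80.0% past this limit, on Fasted/FLX array 2.

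dre-miR-140-5p had both probes close to background. On the 4 Fed arrays 0% of its spots were well above background. On the Fasted arrays 0, 21.7, 1.69 and 1.67% were, and on the Fed/FLX arrays 0, 3.33, 35.6 and 0%. On the Fasted/FLX arrays the share was 91.4, 58.6, 25.9 and 18.3%. The Fasted/FLX arrays lay above all Fed arrays, with array 1 far above array 4, and overlapped with Fasted and Fed/FLX. Past the negative control limit, probe 2 had 27.6, 58.6, 0 and 36.7% of spots on the Fed arrays and 100% on all Fasted/FLX arrays.

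dre-miR-210-5p also rested on 1 probe. Probe 1 had no spot above background on any array, and its median background-subtracted signal was between -2.71 and 1.03. None of its spots passed the 99th percentile of the negative control spots of the same array. Probe 2 of dre-miR-210-5p had 0% of spots well above background on all Fed arrays. On the Fasted arrays it had 10, 70.0, 10 and 0%, on the Fed/FLX arrays 37.9, 78.6, 6.67 and 6.67%, and on the Fasted/FLX arrays 96.7, 90.0, 100 and 26.7%. All Fed/FLX and Fasted/FLX arrays were above the Fed arrays, while Fasted array 4 was level with them. Here too the share of all probe sequences without overlap was not worked out. Past the negative control limit, the same probe had 33.3, 88.5, 0 and 15.4% of spots on the Fed arrays. It had 3.33, 70.0, 0 and 26.7% on the Fasted arrays and 100, 100, 56.7 and 86.7% on the Fed/FLX arrays. By this limit Fed/FLX thus overlapped with Fed, while all Fasted/FLX arrays were at 100%. Probe 2 of dre-miR-210-3p, the other arm, had 100% of spots above background on all 16 arrays, and its probe 1 had at least 93.3%. Past the negative control limit, probe 1 of dre-miR-210-3p had 0% on Fasted array 3, 73.3% on Fed array 3 and 93.3% on Fasted array 1. Elsewhere it had 100%, as probe 2 had on all arrays. The arrays with under 100% were those with the highest limits, at 36.8, 23.5 and 15.5 in the same order.

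**Figure D1:**
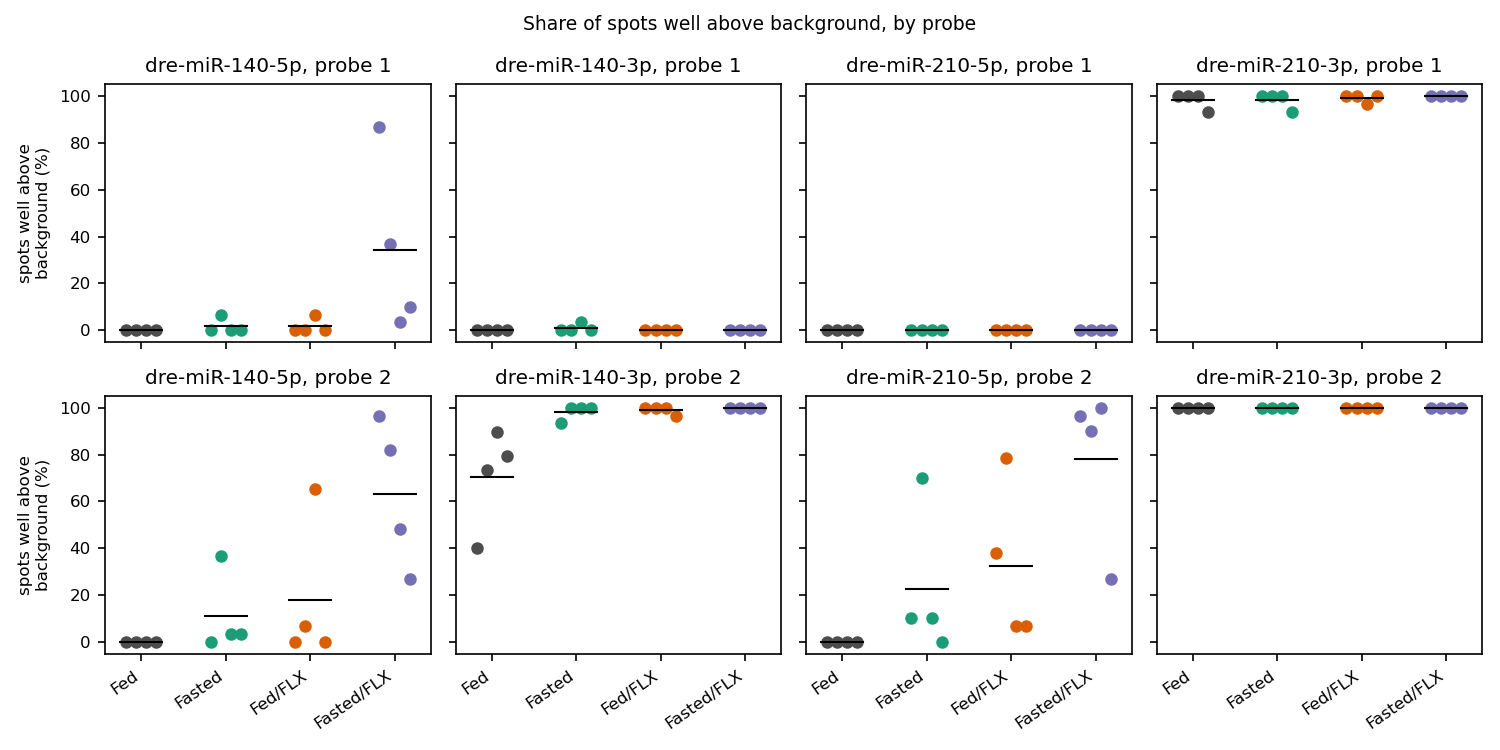
Share of the spots of each probe that were well above background (%, y axis) on each array, by group (x axis), with probe 1 of each arm in the upper row and probe 2 in the lower row. Points are arrays, in replicate order within a group, and black lines are group means (n = 4). Both probes of dre-miR-210-3p sit at 93.3% or more, and probe 1 of dre-miR-210-5p sits at 0% on every array.

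By the share of spots over both probes, dre-miR-140-3p in Fasted did not overlap with Fed, which was so for 2.02% of all 248 miRNAs. In Fed/FLX dre-miR-140-3p and dre-miR-210-5p did not overlap with Fed, against 2.82% of all miRNAs. In Fasted/FLX 3 of 4 members did not, against 7.66% of all, and the exception was dre-miR-210-3p, whose share was near 100% in all groups. In each of these cases Fed was the lower group. A miRNA with no spot above background on any array of the groups compared cannot be without overlap. The same holds for a miRNA with all spots above background on these arrays. Any such miRNAs count among the 248, and their number was not worked out. The percentages of all miRNAs may thus lie below those of miRNAs with shares in between. The Fasted and Fasted/FLX arrays were also the brighter ones, and the part of array brightness in these shares was not tested.

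Median spot signals before any scaling between arrays had their lowest group mean in Fed for probe 2 of each arm. For probe 2 of dre-miR-140-3p the signal was 14.3, 15.4, 19.9 and 15.7 on the Fed arrays, and 41.0, 40.3, 30.7 and 32.0 on the Fasted/FLX arrays. Its group means were 16.3 ± 2.4 (SD, n = 4) in Fed and 28.4 ± 8.0 in Fasted, and 24.8 ± 5.7 in Fed/FLX and 36.0 ± 5.4 in Fasted/FLX. For probe 2 of dre-miR-210-5p the means were 7.93 ± 1.61 in Fed and 11.1 ± 3.5 in Fasted, and 12.3 ± 2.0 in Fed/FLX and 18.3 ± 5.7 in Fasted/FLX. Both probes thus had their lowest mean in Fed and their highest in Fasted/FLX. For probe 2 of dre-miR-140-5p the means were 7.42 ± 1.46, 10.5 ± 3.2, 10.2 ± 2.9 and 15.4 ± 3.9 in the same order of groups. For probe 2 of dre-miR-210-3p they were 44.8 ± 4.9, 48.8 ± 11.5, 60.0 ± 10.9 and 56.7 ± 13.5, and this probe alone among the 4 had its highest mean in Fed/FLX. Probe 1 of dre-miR-210-3p also had its highest mean in Fed/FLX, at 28.1 ± 6.6, beside 25.9 ± 6.1 in Fasted/FLX. These signals carry the brightness of each array given above.

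The scanner software also gives each miRNA a total gene signal, and writes 0.1 where its own mark says that the miRNA was not detected. By that mark dre-miR-140-3p and dre-miR-210-3p were detected on all 16 arrays, dre-miR-210-5p on 12 and dre-miR-140-5p on 9. The values of the members equalled, within 0.001 of the value, the sum of the software's totals for both probes or the total of probe 2 alone, so values set side by side need not hold the same probes. dre-miR-210-3p held both probes on all 16 arrays and dre-miR-210-5p only probe 2 on its 12. dre-miR-140-3p held probe 2 alone on 14 arrays and both probes on Fasted array 3 and Fasted/FLX array 2. dre-miR-140-5p was listed at 0.1 on all 4 Fed arrays, on Fasted array 1 and on Fed/FLX arrays 1 and 4. Its other values were 47.6, 24.5 and 18.6 on Fasted arrays 2, 3 and 4, and 34.2 and 49.4 on Fed/FLX arrays 2 and 3. On the Fasted/FLX arrays they were 72.8, 52.7, 49.8 and 43.0. Those on Fasted arrays 3 and 4 held probe 2 alone and the other 7 held both probes. dre-miR-140-5p was thus listed with a signal on every Fasted/FLX array and on no Fed array, and no fold is given against a group that was listed at 0.1 throughout.

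dre-miR-210-5p was listed at 0.1 on Fed arrays 1, 2 and 4 and on Fasted array 4, and its signal was 20.4 on Fed array 3. Its signal was 21.6 to 30.0 on the other 3 Fasted arrays, 20.2 to 27.8 on the Fed/FLX arrays and 24.2 to 47.9 on the Fasted/FLX arrays. The values other than 0.1 thus stayed within 20.2 to 47.9 over all groups. The 3p arms had a signal on each array. That of dre-miR-140-3p was 28.4 to 39.7 in Fed and 36.7 to 95.8 in Fasted, and 38.6 to 64.0 in Fed/FLX and 60.5 to 97.3 in Fasted/FLX. That of dre-miR-210-3p was 111 to 146 in Fed and 104 to 178 in Fasted, and 128 to 204 in Fed/FLX and 130 to 212 in Fasted/FLX. Fasted/FLX overlapped with Fed for dre-miR-210-3p and not for dre-miR-140-3p. These signals are not scaled between arrays, and every Fasted/FLX array was brighter than every Fed array. The share of all 248 miRNAs without overlap in this signal was not worked out.

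**Figure D2:**
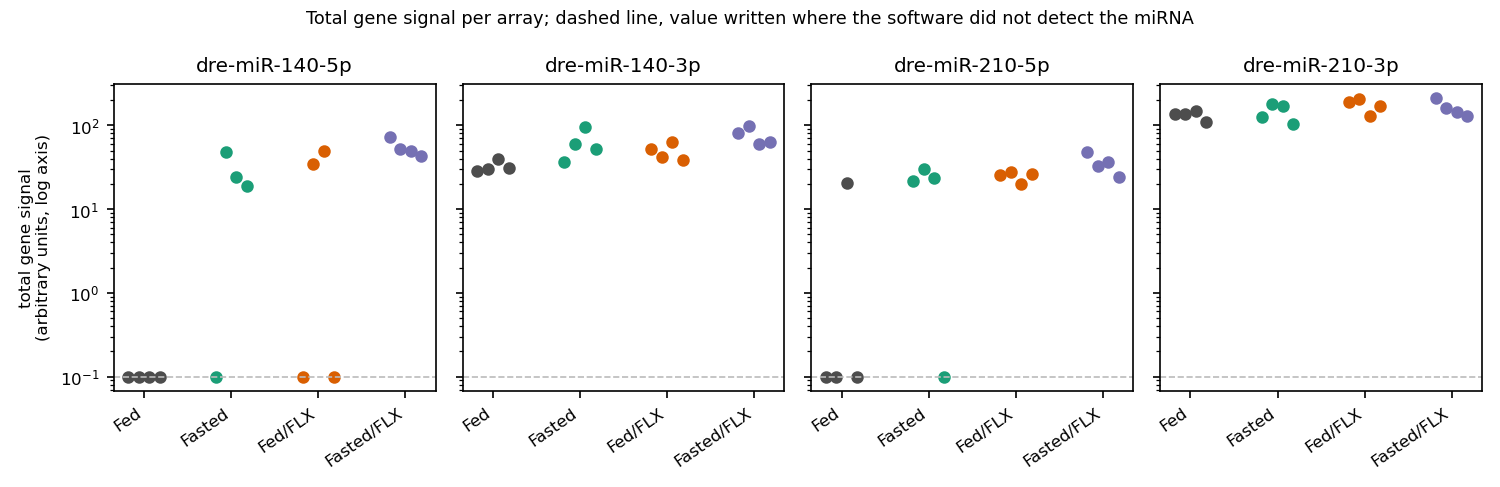
Total gene signal of each arm on each array (arbitrary units, log axis), by group, as the scanner software wrote it and not scaled between arrays. Points are arrays, and the dashed line is the value of 0.1 that the software wrote where it did not detect the miRNA. All 4 Fed arrays of dre-miR-140-5p and 3 of 4 of dre-miR-210-5p lie on that line, while the 3p arms are above it on all arrays.

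To compare the groups, spot signals were turned into RMA values, which are background-corrected, quantile-normalized log2 values with 1 value per miRNA and array. The dimmest detected miRNA of an array lay between 3.40 and 4.45 on this scale. dre-miR-140-5p had RMA values of 3.73, 4.02, 3.98 and 3.78 on the Fed arrays and 4.26, 4.26, 4.13 and 4.03 on the Fasted/FLX arrays. On the Fasted arrays they were 3.43, 4.30, 4.11 and 4.03, and on the Fed/FLX arrays 4.12, 3.86, 4.12 and 4.38. The Fasted/FLX values were all above the Fed values, by a gap at the nearest arrays of under 0.01, and the other groups overlapped with Fed. Group means were 3.88 ± 0.14 (SD, n = 4) in Fed and 3.97 ± 0.38 in Fasted, and 4.12 ± 0.21 in Fed/FLX and 4.17 ± 0.11 in Fasted/FLX, an order in which no neighbours differed beyond their spread.

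dre-miR-140-3p had RMA values of 3.74, 4.18, 4.15 and 3.91 on the Fed arrays. On the Fasted arrays they were 3.84, 4.46, 4.60 and 4.54, on the Fed/FLX arrays 4.69, 3.97, 4.43 and 4.48, and on the Fasted/FLX arrays 4.30, 4.64, 4.27 and 4.32. Only the Fasted/FLX arrays were all above the Fed arrays, since Fasted array 1 and Fed/FLX array 2 lay among the latter. The mean was lowest in Fed at 4.00 ± 0.21, and was 4.36 ± 0.35 in Fasted and 4.39 ± 0.30 in Fed/FLX, and 4.38 ± 0.17 in Fasted/FLX, so that the 3 treatments did not differ from each other beyond their spread.

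dre-miR-210-5p had the lowest RMA values of the members, and on 15 of 16 arrays it lay below the dimmest detected miRNA. They were 3.20, 3.50, 3.40 and 3.09 on the Fed arrays, 3.22, 3.67, 3.45 and 2.98 on the Fasted arrays, 3.67, 3.47, 3.15 and 3.82 on the Fed/FLX arrays and 3.66, 3.66, 3.73 and 3.34 on the Fasted/FLX arrays. All groups overlapped, and the means rose from 3.30 ± 0.19 in Fed over 3.33 ± 0.30 in Fasted and 3.53 ± 0.29 in Fed/FLX to 3.60 ± 0.18 in Fasted/FLX, with no neighbours apart by more than their spread.

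dre-miR-210-3p was above the dimmest detected miRNA on all arrays. Its RMA values were 5.54, 5.78, 5.56 and 5.21 on the Fed arrays and 4.99, 5.61, 5.40 and 5.12 on the Fasted arrays. On the Fed/FLX arrays they were 6.20, 5.69, 5.08 and 6.04, and on the Fasted/FLX arrays 5.40, 5.40, 5.18 and 5.13. Fed/FLX held the 2 highest values of all 16 arrays, but its array 3 was among the lowest. The order of the means was thus another than for the 3 other arms, with 5.28 ± 0.14 in Fasted/FLX, 5.28 ± 0.28 in Fasted, 5.52 ± 0.23 in Fed and 5.75 ± 0.50 in Fed/FLX, and no neighbours differed beyond their spread.

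**Figure D3:**
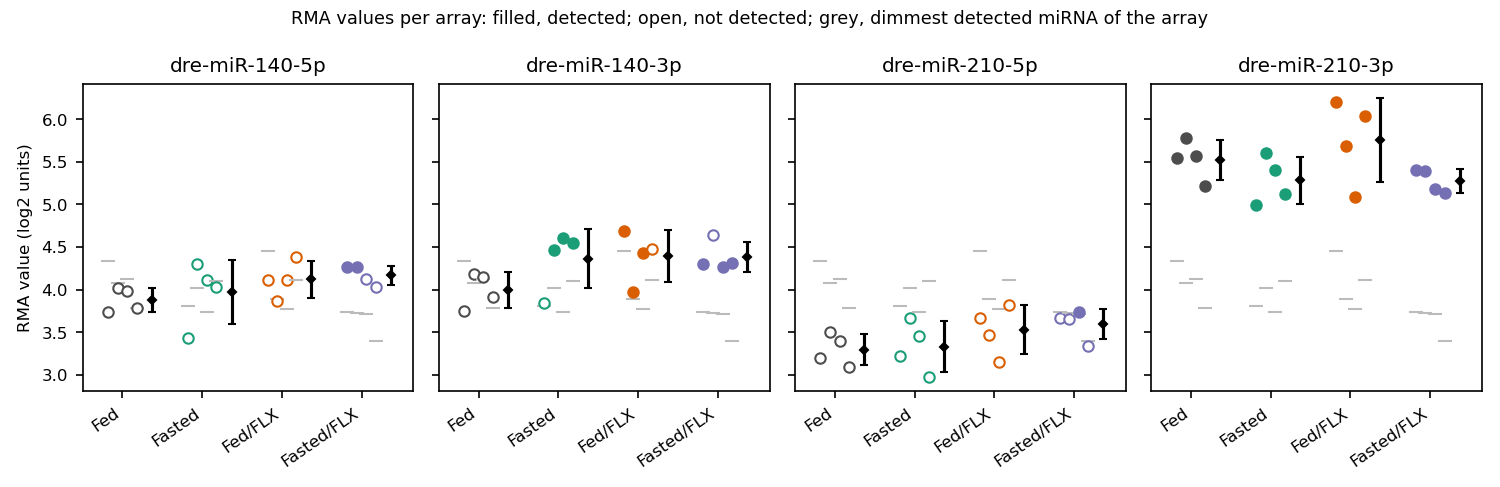
RMA values (log2 units, y axis) of the 4 arms on each array, by group. Filled points are arrays on which the arm was detected and open points those on which it was not, grey dashes are the dimmest detected miRNA of the same array, and black diamonds with bars are means and SDs (n = 4). Only dre-miR-210-3p is filled on all arrays, and its Fed/FLX values spread from 5.08 to 6.20.

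The comparisons asked whether fasting, FLX or both together changed the level of each arm. With limma on all 248 miRNAs, a Benjamini-Hochberg adjusted p under 0.05 and at least a 2-fold change, 0 of the 4 members changed in any comparison. Of all miRNAs 0% passed in Fasted against Fed, 0.403% in Fed/FLX against Fed, 0% in Fasted/FLX against Fed, 0% in Fasted/FLX against Fasted, 0% in Fasted/FLX against Fed/FLX and 0.806% in the interaction of FLX and fasting. Without the minimum fold the members that passed were again 0 of 4 throughout, where in the same order 0%, 12.9%, 4.84%, 6.45%, 1.61% and 1.61% of all miRNAs passed. At an unadjusted p under 0.05, 1 member passed in each of Fed/FLX against Fed (dre-miR-140-3p), Fasted/FLX against Fed (dre-miR-140-3p) and Fasted/FLX against Fed/FLX (dre-miR-210-3p), where 23.4%, 16.1% and 11.7% of all 248 miRNAs passed. In the other comparisons 0 of 4 did, against 11.7% of all in Fasted against Fed, 16.9% in Fasted/FLX against Fasted and 12.9% in the interaction.

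dre-miR-140-3p was the arm with the largest differences from Fed. Its log2 difference was 0.37 (SE 0.18, adjusted p = 0.394) in Fasted and 0.39 (SE 0.18, adjusted p = 0.188) in Fed/FLX, and 0.39 (SE 0.18, adjusted p = 0.298) in Fasted/FLX. As folds these are 1.29 (95% interval 0.991 to 1.68), 1.31 (1.01 to 1.71) and 1.31 (1.00 to 1.70). By the share of spots over both probes the arm was not detected on any Fed array. Its probe 2 alone had 40 to 89.7% of spots well above background there, and the scanner's mark was positive on all 4. On 3 of these 4 arrays its RMA value lay above the dimmest detected miRNA, so that the bound there rests on the arm's own value. The bounds on these folds were 1.16, 1.19 and 1.18, which leave out the spread between arrays. By probe 2, the probe that gave signal, the log2 difference from Fed was 0.34 for Fasted, 0.39 for Fed/FLX and 0.42 for Fasted/FLX (adjusted p = 0.441, 0.218 and 0.265 over all probe sequences). Within slides the difference in Fed/FLX was 0.37 and 0.42, and that in Fasted/FLX 0.51 and 0.26. With 1 array left out at a time, that in Fed/FLX was 0.30 to 0.54, and its adjusted p was under 0.05 only without Fed/FLX array 2 (0.0484), the lowest of its group. Fasting on top of FLX gave -0.01 (95% interval -0.39 to 0.37), and the interaction was -0.38 (SE 0.25, adjusted p = 0.577).

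For dre-miR-140-5p the log2 difference from Fed was 0.09 (SE 0.16, adjusted p = 0.853) in Fasted and 0.24 (SE 0.16, adjusted p = 0.443) in Fed/FLX, and 0.29 (SE 0.16, adjusted p = 0.370) in Fasted/FLX. For the last, the bound on the fold was 1.06, which leaves out the spread between arrays. The 95% interval of its fold was 0.969 to 1.54, which spans no change. No fold is given for the other 2, where neither group had the arm detected. Against Fasted the difference in Fasted/FLX was 0.20 (SE 0.16, adjusted p = 0.597). The bound was again 1.06, and the 95% interval of the fold, 0.912 to 1.45, also spanned no change. The Fasted/FLX values of both arms of miR-140 did not overlap with Fed, where 16.5% of all 248 miRNAs did not overlap in either direction. In the other 4 comparisons of 2 groups 0 of 4 members were without overlap, against 8.47% of all in Fasted against Fed, 12.1% in Fed/FLX against Fed, 12.9% in Fasted/FLX against Fasted and 5.24% in Fasted/FLX against Fed/FLX.

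The arms of miR-210 had differences of opposite sign in Fasted/FLX and in Fasted and alike ones in Fed/FLX, and none was called. In Fasted/FLX against Fed the log2 difference was 0.30 (SE 0.16, adjusted p = 0.370) for dre-miR-210-5p and -0.25 (SE 0.21, adjusted p = 0.610) for dre-miR-210-3p. In Fasted against Fed it was 0.03 (SE 0.16) and -0.24 (SE 0.21), and in Fed/FLX against Fed 0.23 (SE 0.16) and 0.23 (SE 0.21), with adjusted p between 0.463 and 0.976. The largest difference of dre-miR-210-3p was between Fasted/FLX and Fed/FLX, -0.48 (SE 0.21, adjusted p = 0.370), a fold of 0.719 with a 95% interval of 0.529 to 0.977. It was -0.55 within slide 1 and -0.40 within slide 2, but -0.09 (adjusted p = 0.783) without quantile normalization. With the total gene signal scaled to a common 75th percentile it was -0.73 (adjusted p = 0.00723). With spots scaled to that percentile it was -0.62 (adjusted p = 0.0385). The median of all 248 miRNAs was -0.63 and -0.53 in these 2 settings, and the share that passed by adjusted p alone was not worked out. In the RMA values with 1 array left out at a time, the difference of dre-miR-210-3p was -0.70 to -0.33. Its adjusted p was then under 0.05 only without Fed/FLX array 3 (0.0459), the lowest of its group. No fold is given for dre-miR-210-5p against Fed. In Fasted/FLX the bound set by the dimmest detected miRNA was under 1. In Fasted and in Fed/FLX against Fed, neither group had the arm detected.

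Scaling between the arrays had a part in these values. Without quantile normalization the log2 difference in Fasted/FLX against Fed was 0.59 for dre-miR-140-5p (adjusted p = 0.0166), 0.73 for dre-miR-140-3p (adjusted p = 0.00597) and 0.50 for dre-miR-210-5p (adjusted p = 0.0312), where the median of all miRNAs was 0.10, and that of dre-miR-210-3p turned to 0.21. All stayed under 2-fold, where 3 of all 248 miRNAs passed both thresholds in this setting. The share of all miRNAs that passed by adjusted p alone was not worked out here. The median of all miRNAs includes the many that were not detected. Over the 49 miRNAs detected on every array, the median spot signal was 158 to 242 in Fasted/FLX and 102 to 136 in Fed. The part of this brightness in the differences without quantile normalization was not tested. With the total gene signal scaled to a common 75th percentile, dre-miR-140-5p and dre-miR-210-5p passed both thresholds in Fasted/FLX against Fed, where 9 of all 248 miRNAs did. Their log2 differences of 8.26 and 5.70 come from the value of 0.1 on the Fed arrays. In the same setting and comparison dre-miR-210-3p was at -0.54 (adjusted p = 0.0393), beside a median of -0.80 over all miRNAs.

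The difference between the arms of a hairpin on the same array, the RMA value of 5p minus that of 3p, was compared next. Its size mixes the response of different probes, so only its change between groups was tested, over the 33 hairpins with both arms on the array. For miR-210 it was -2.34, -2.28, -2.17 and -2.12 on the Fed arrays, -1.77, -1.94, -1.95 and -2.15 on the Fasted arrays, -2.53, -2.22, -1.93 and -2.22 on the Fed/FLX arrays and -1.73, -1.74, -1.45 and -1.79 on the Fasted/FLX arrays. Each Fasted/FLX array was above each Fed and each Fed/FLX array, and overlapped with Fasted only at Fasted array 1. Such a lack of overlap was seen for 15.2% of the 33 hairpins against Fed and for 9.09% against Fed/FLX.

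The arm difference of miR-210 was thus smaller in Fasted/FLX, at -1.68 ± 0.16 (SD, n = 4), than in Fed, at -2.23 ± 0.10, or in Fed/FLX, at -2.22 ± 0.25. By limma it changed by 0.55 (SE 0.12, 95% interval 0.29 to 0.81, adjusted p = 0.0129) against Fed and by 0.55 (SE 0.12, 95% interval 0.29 to 0.81, adjusted p = 0.00686) against Fed/FLX, in the direction of the 5p arm. Of the 33 hairpins 3.03% passed in the former comparison and 12.1% in the latter. In Fasted the difference was -1.95 ± 0.15, and the change was 0.28 (SE 0.12, adjusted p = 0.317) from Fed to Fasted and 0.27 (SE 0.12, adjusted p = 0.272) from Fasted to Fasted/FLX. From Fed to Fed/FLX it was 0.00 (95% interval -0.26 to 0.26), and the interaction was 0.27 (SE 0.17, adjusted p = 0.334). Within slides 1 and 2 the change in Fasted/FLX was 0.58 and 0.52 against Fed, and 0.64 and 0.45 against Fed/FLX.

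By the 50% limit dre-miR-210-5p was detected on 1 array only, and on most arrays its RMA value lay below the dimmest detected miRNA. Its probe 1 had no spot above background, so the arm rests on probe 2. Of the spots of probe 2, 0% were well above background on all Fed arrays and 6.67 to 78.6% on the Fed/FLX arrays. On the Fasted/FLX arrays 96.7, 90.0, 100 and 26.7% were. Against Fed the part of dre-miR-210-5p in the change thus starts from values near background. Against Fed the log2 difference was 0.30 for dre-miR-210-5p and -0.25 for dre-miR-210-3p. Against Fed/FLX it was 0.07 for dre-miR-210-5p and -0.48 for dre-miR-210-3p. In the RMA values the change against Fed/FLX thus lay mostly in the 3p arm, which was detected on all 16 arrays. Without quantile normalization it lay mostly in the 5p arm, with 0.31 for dre-miR-210-5p and -0.09 for dre-miR-210-3p. Neither change of the arm difference passed the test with spots scaled to a common 75th percentile (0.09 and 0.34). The same held with an offset of 50 (0.17 and 0.24) and with no further background correction (0.50 and 0.63). Without quantile normalization both passed (0.29, adjusted p = 0.0373, and 0.40, adjusted p = 0.0168). With probe 2 of dre-miR-210-5p alone, the probe that gave signal, the changes were 0.61 (adjusted p = 0.00578) against Fed and 0.53 (adjusted p = 0.00982) against Fed/FLX. With probe 1 alone, which had no spot above background, they were 0.35 (adjusted p = 0.179) and 0.59 (adjusted p = 0.00882). The change against Fed also missed the threshold without Fed array 1 (0.51, adjusted p = 0.0583) and without Fasted/FLX array 3 (0.47, adjusted p = 0.0688), the latter being the array on which dre-miR-210-5p was detected.

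For miR-140 the arm difference was -0.01, -0.15, -0.17 and -0.13 on the Fed arrays, -0.42, -0.15, -0.49 and -0.52 on the Fasted arrays, -0.57, -0.11, -0.31 and -0.10 on the Fed/FLX arrays and -0.04, -0.38, -0.14 and -0.29 on the Fasted/FLX arrays. All groups overlapped. The means were -0.12 ± 0.07 in Fed, -0.40 ± 0.17 in Fasted and -0.27 ± 0.22 in Fed/FLX, and -0.21 ± 0.15 in Fasted/FLX, and none of the 6 changes passed the test. The largest 2-group change was -0.28 (SE 0.12, 95% interval -0.53 to -0.03, adjusted p = 0.317) in Fasted against Fed, where 0% of the 33 hairpins passed. It was -0.20 within slide 1 and -0.35 within slide 2. The interaction was 0.34 (SE 0.17, adjusted p = 0.321), against 3.03% of hairpins that passed.

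**Figure D4:**
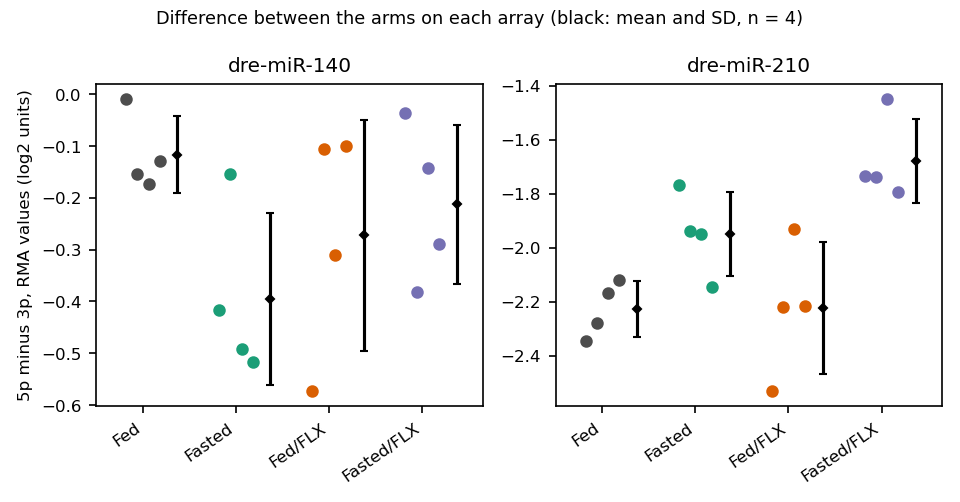
Difference between the arms of miR-140 (left) and miR-210 (right) on each array, as the RMA value of 5p minus that of 3p (log2 units, y axis, with a range of its own for each hairpin), by group. Points are arrays in replicate order, and black diamonds with bars are means and SDs (n = 4). For miR-210 the 4 Fasted/FLX arrays, at -1.79 to -1.45, are above all Fed arrays, at -2.34 to -2.12, while for miR-140 all groups overlap.

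Over the 16 arrays the RMA values of the 2 arms of miR-140 had a Pearson correlation of 0.79 and those of miR-210 of 0.60. These are descriptions over arrays that share their normalization and their groups. Among the 33 hairpins, 17 had neither arm detected on any array, and 5 had both arms detected on at least 1 array, miR-140 and miR-210 among them. The 3p arm was detected on more arrays than the 5p arm for 9 hairpins, as for miR-140 and miR-210, the 5p arm on more arrays for 6, and the numbers were equal for 18. In 6 hairpins 1 arm was detected on all 16 arrays and the other on none, and only 1 hairpin, miR-30e, had both on all 16. Against Fed the arm difference passed the test in Fed/FLX for 4 hairpins (12.1%), and the 3 with the largest change were miR-19a at 1.01 (adjusted p = 0.0169), miR-30e at -0.72 (adjusted p = 0.00589) and miR-181a at 0.51 (adjusted p = 0.0182). In Fasted/FLX against Fasted it passed for 9.09% of the hairpins, with neither miR-140 (0.18, adjusted p = 0.428) nor miR-210 among them.

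The miRNAs whose RMA values went most closely with each arm were taken from the 75 that were detected on at least 8 arrays. For dre-miR-140-5p they were dre-let-7e (Pearson correlation over 16 arrays of 0.70), dre-miR-204 (0.66) and dre-miR-130a (0.62). For dre-miR-140-3p they were dre-miR-130a (0.71), dre-miR-199-5p (0.64) and dre-let-7c (0.62). dre-miR-130a thus stood on the lists of both arms of miR-140. For dre-miR-210-5p they were dre-let-7e (0.84), dre-miR-16b (0.76) and dre-miR-30e-3p (0.65), and for dre-miR-210-3p dre-miR-365 (0.68), dre-miR-30e-3p (0.60) and dre-let-7i (0.58). The arrays share their scaling, which bears on all of these values.

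miRNAs that are linked to hypoxia in mammals, as miR-210 is, were looked at beside it. Of the 9 measured, 6 were detected on at least 1 array, and with the 2-fold minimum 0 of 9 changed in any comparison. Without the minimum 1 of 9 fell in Fed/FLX against Fed and in Fasted/FLX against Fasted, which was dre-miR-26a by 0.31 (adjusted p = 0.0492) and by 0.41 (adjusted p = 0.0197) on the log2 scale, where 12.9% and 6.45% of all miRNAs passed in either direction. In Fasted/FLX against Fed the median log2 difference of the 9 was 0.06, beside 0.01 over all 248 miRNAs. Of 5 miRNAs that are known from cartilage and other mesenchyme, where miR-140 has its best-known role, 4 were detected on at least 1 array, dre-miR-145 and dre-miR-199-5p on all 16. None of the 5 passed in any comparison with or without the minimum fold, and their median log2 difference was 0.14 in Fasted/FLX against Fed and -0.04 in Fed/FLX against Fed. In bulk liver fewer cells of a type and less RNA per cell cannot be told apart. The summed level of these 5 was 8.75 to 9.06 in Fed and 8.84 to 9.15 in Fasted, and 8.89 to 9.35 in Fed/FLX and 8.87 to 9.09 in Fasted/FLX on the log2 scale, and overlapped between the groups. dre-miR-199-5p and dre-miR-199-3p stood on both lists, each counted as a miRNA of its own. dre-miR-107 was also named for hypoxia and dre-miR-455 for cartilage. The array holds them only as dre-miR-107a and dre-miR-107b and as dre-miR-455a and dre-miR-455b, which were not taken into the lists.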

How the data were processed

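The authors deposited the scanner output of 16 arrays, with a background-subtracted intensity for each spot from Agilent Feature Extraction 11.0.1.1, not normalized between arrays, and a detection mark and total gene signal for each miRNA. The deposited log2 table holds 166 miRNAs, of the members only the 5p arms, and served, under its own headings, only as an alternative. Groups were taken from the labels. Intensities were corrected with the normal-exponential model (rma75) over all 15595 spots, and control spots and spots with an outlier mark were left out. Quantile normalization, log2 and median polish (at most 20 iterations) followed. Groups were compared with limma 3.58.1 (R 4.3.3, 1 mean per group, Benjamini-Hochberg adjustment), and the steps were tested on simulated data. The changes planted there were large and in bright miRNAs only, so that test does not cover signals near background. Figures were drawn with matplotlib 3.10.9.

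A bound on a fold sets the brighter group's mean against, per array of the other group, the higher of the dimmest detected miRNA and the arm's own value. It leaves out the spread between arrays. Arrays have no read counts, so their number limits the precision. The named miRNAs were the 4 arms, the 3 that correlated best with each, the 3 other hairpins with the largest called arm change against Fed, all in Fed/FLX, and 2 lists. Members and lists were chosen with earlier results of these data known. Same-numbered Fed and Fasted arrays deviated together (all 4 correlations 0.113 to 0.265), and elsewhere at most 2 of 4 exceeded 0.1. Same-numbered Fed and Fasted arrays also shared a slide and a slide column. So did same-numbered Fed/FLX and Fasted/FLX arrays, whose correlations were -0.174 to 0.168. The labels name no pairing. Pairing and position thus cannot be told apart. The main comparisons used no pairing, and the replicate number was a block only in an alternative. Alternatives changed background, scaling, summary, detection limit, block, test and arrays left out.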

Additional observations from a re-analysis of the deposited data

Results flagged for a closer look

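Of the 24 sets of 4 arrays tested for an array that stands apart (Dixon's ratio, for each arm and each arm difference in each group), 1 was picked out, where chance picks about 1 in 20. It was the RMA value of dre-miR-140-3p in Fasted/FLX, where array 2 lay at 4.64 and the other 3 arrays between 4.27 and 4.32, a ratio of 0.874. On this array 49.2% of the spots of dre-miR-140-3p were well above background.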

How the results depend on the processing

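Changes of the arms were not called in Fed/FLX against Fed, Fasted/FLX against Fasted and Fasted/FLX against Fed/FLX under any of the alternatives run, nor in any comparison when 1 array was left out. With the total gene signal, 1 arm was called in Fasted against Fed (dre-miR-140-5p, 5.71 on the log2 scale) and 2 in Fasted/FLX against Fed. Of all 248 miRNAs 5 and 9 were called there, while the median of all miRNAs shifted by -0.38 and -0.80. The calls of the arms follow from the value of 0.1 written for undetected miRNAs. The deposited table, by its headings, gave a called change of 1 arm, in the interaction (dre-miR-140-5p, -9.99), where 5 of its 166 miRNAs were called. Of its 16 columns 12 matched a scan of another group. Detection at 25% of spots, at 75% and by the scanner's mark gave 4, 1 and 9 arrays for dre-miR-140-5p, 15, 0 and 16 for dre-miR-140-3p and 5, 0 and 12 for dre-miR-210-5p.

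The 2 called arm differences, both of miR-210, became 0 with spots scaled to the 75th percentile, with an offset of 50 and with no further background correction (alternatives chosen after seeing the data, as were those by probe), and 1 with probe 1 of dre-miR-210-5p alone. With 1 array left out 1 to 2 were called. With the replicate number or the slide as a block 2 were called, and the block changed no call of any comparison. With the replicate block the change of miR-210 was 0.55 (adjusted p = 0.0164) in Fasted/FLX against Fed.

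Differences that were not called changed sign under some alternatives, and the cause was not tested. With the total gene signal, they were -0.070 for dre-miR-140-3p in Fasted/FLX against Fasted, and for dre-miR-210-5p -0.16 in Fasted/FLX against Fed/FLX and -3.83 in the interaction. With spots scaled to the 75th percentile, where the median of all miRNAs shifted by -0.63 in Fasted/FLX against Fed, they were for dre-miR-210-5p -0.27 in Fasted and in Fasted/FLX against Fed, -0.0023 against Fasted, -0.28 against Fed/FLX and -0.0068 in the interaction. Without quantile normalization, dre-miR-210-3p gave 0.027 in Fasted and 0.21 in Fasted/FLX against Fed and 0.18 against Fasted, dre-miR-140-3p 0.35 in Fasted/FLX against Fed/FLX and dre-miR-140-5p 0.22 in the interaction. For dre-miR-140-3p in Fasted/FLX against Fasted an offset of 50 gave -0.0030, the mean over spots -0.024 and probe 1 -0.088. By its headings, the deposited table gave -4.21 and -5.77 for dre-miR-140-5p in Fasted/FLX against Fasted and against Fed/FLX. For dre-miR-210-5p it gave -2.05 against Fasted and -3.70 in the interaction. Of its 16 columns 12 matched a scan of another group, so these values do not compare the groups named. Probe 1 of dre-miR-210-5p gave -0.14 in Fasted and -0.014 in Fed/FLX against Fed, and probe 2 gave 0.082 for dre-miR-210-3p in Fasted/FLX against Fasted and 0.039 for dre-miR-140-3p against Fed/FLX.

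Of the arm differences, that of miR-140 in Fasted/FLX against Fed/FLX was -0.00060 without quantile normalization. That of miR-210 was -0.0064 in Fasted and -0.10 in Fed/FLX against Fed without it, -0.0098 and -0.25 with spots scaled to the 75th percentile, and in Fed/FLX -0.077 with an offset of 50, -0.13 with no further background correction and -0.24 by probe 1. With 1 array left out, signs changed in these ranges. For dre-miR-140-5p they were -0.024 to 0.27 in Fasted against Fed, -0.035 to 0.14 in Fasted/FLX against Fed/FLX and -0.22 to 0.075 in the interaction. For dre-miR-210-5p they were -0.078 to 0.15, -0.057 to 0.17 and -0.091 to 0.15. For dre-miR-140-3p they were -0.15 to 0.10 in Fasted/FLX against Fasted and -0.15 to 0.090 against Fed/FLX, and for dre-miR-210-3p -0.10 to 0.10 against Fasted. The arm difference ranged from -0.040 to 0.12 for miR-140 in Fasted/FLX against Fed/FLX and from -0.094 to 0.11 for miR-210 in Fed/FLX against Fed.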
